A study of Mus musculus with 24 samples.

Results

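The cerebellar markers described here are 10 genes followed across 23 RNA-seq libraries of mouse brain. They were taken by name from 50686 genes in each table, and all 10 were found by their Ensembl identifiers and passed the filter on low counts. Pcp2, Car8, Ppp1r17, Calb1 and Itpr1 are transcripts of Purkinje cells, and Cbln1, Cbln3, Zic1, En2 and Barhl1 belong to granule cells or to cerebellar identity. All 10 were detected in each of the 23 libraries. The libraries came from tissue labelled as the left part of the back of the brain, on a C57BL/6 background, from females and males on day 10 or day 20 (taken as age, since the labels say only "day"). Double-knockout mice (dKO) were Pank1-/- and carried a Pank2 deletion written Syn-Pank2-/-, and controls were labelled wild type (WT); Pank1 and Pank2 encode kinases of the first step of coenzyme A synthesis. What "Syn" stands for, and so which cells lost Pank2, is not given in the sources used here. There were 3 libraries for each genotype, sex and day, except dKO males on day 10, where the third library held 45964 gene counts and was left out, so that 2 remained. The labels do not state that each library is 1 animal, so the p-values measure the spread between these libraries.

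The cerebellar cortex is built around Purkinje cells, its sole output neurons, and granule cells, its most numerous neurons. Purkinje cells are born before birth and grow their dendrites and synapses in the first weeks after it. Granule cell progenitors divide at the outer surface of the cerebellum under the transcription factor Atoh1, then leave the cell cycle, migrate inward past the Purkinje cells and form the parallel fibres that contact Purkinje dendrites. In the mouse that programme runs through the second postnatal week. Zic1, Calb1 and Itpr1 are also expressed in other brain regions.

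Upstream sequence is shown for 3 granule or Purkinje members with different courses between the days: Pcp2 did not pass the test in WT, Cbln3 rose and Barhl1 fell. The bases come from RefSeq (GRCm38.p6), which had promoter entries for 4 of the 10 members (Pcp2, Cbln3, Zic1 and Barhl1), and are written 5′ to 3′ on the gene's strand, leaving out stretches that carry annotated exons. The motifs searched on both strands were, in the 250 bases before the start, AGGTCA (the core that the nuclear receptor RORA binds) and CAGATG (an E-box of the type that Atoh1 binds). Capitals mark a match. AGGTCA was present in 14% and CAGATG in 14.4% of 32851 windows of the same length, so a match is common. The Pcp2 stretch is chr8:3625607-3625778, that of Cbln3 chr14:55884393-55884506 and that of Barhl1 chr2:28916669-28916918, all on the minus strand.
Pcp2: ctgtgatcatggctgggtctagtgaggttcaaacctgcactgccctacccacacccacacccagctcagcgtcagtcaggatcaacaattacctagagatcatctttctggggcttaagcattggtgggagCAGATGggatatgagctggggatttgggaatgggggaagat
Cbln3: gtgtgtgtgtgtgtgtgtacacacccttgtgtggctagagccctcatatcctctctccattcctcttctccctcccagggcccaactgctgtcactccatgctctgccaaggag
Barhl1: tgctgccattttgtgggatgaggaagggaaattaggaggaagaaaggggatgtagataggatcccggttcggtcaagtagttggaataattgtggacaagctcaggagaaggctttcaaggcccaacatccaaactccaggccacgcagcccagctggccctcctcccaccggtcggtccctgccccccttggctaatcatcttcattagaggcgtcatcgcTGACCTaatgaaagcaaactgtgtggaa
The Pcp2 window held 1 CAGATG and 1 AGGTCA, the second of which lies closer to the start than the stretch shown. Barhl1 had 1 AGGTCA, read on the opposite strand as TGACCT. Neither motif occurred in the windows of Cbln3 and Zic1.

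Sequencing depth was 9.19 to 44.7 M gene counts (M, mega). Levels are given as CPM, gene counts scaled to 1 M per library, so 1 count corresponds to 0.0224 to 0.109 CPM, below the level of every member. Pank1 was at 20.99 to 24.7 CPM in WT and 7.17 to 8.87 CPM in dKO libraries on day 10, and at 19.5 to 26.7 against 6.71 to 8.12 CPM on day 20, with no overlap between genotypes on either day. Pank2 overlapped on day 10 (46.3 to 56.3 CPM in WT, 44.6 to 52.1 in dKO) and did not on day 20 (52.6 to 61.3 against 38.5 to 46.3). Which exons were deleted is not given in the sources used here, and counts outside them check nothing.

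On day 10, 4 libraries stood apart in markers of brain region, with no single direction in the members. Those lowest in hindbrain genes were at opposite ends, with the members at 0.0729% of normalised counts in dKO male replicate 2 and 0.427% in WT male replicate 1. A list of 14 hindbrain genes, mostly Hox genes, summed to 0.391 CPM in dKO male replicate 2 and to 3.02 CPM in WT male replicate 1, against 125 CPM in dKO female replicate 2 and 68.2 CPM in WT male replicate 3; the other 7 libraries of that day had 18.8 to 55.03 CPM. Telencephalon genes summed to 71.2 CPM in dKO female replicate 2 and 32.6 CPM in dKO male replicate 2, and to 10.8 to 22.7 CPM in the other 9. In dKO male replicate 2 the choroid plexus list was at 31.3 CPM (268 to 627 CPM elsewhere on day 10) and the thalamus and midbrain list at 212 CPM (32.9 to 105 CPM elsewhere). Of the 11 day 10 libraries, dKO male replicate 2 was lowest for 8 members and dKO female replicate 2 for 2, while WT male replicate 1 was highest for 9. Results are therefore given with and without both of these dKO libraries, a choice made after seeing the data. The WT libraries that stood apart were kept in that fit, and no fit left out all 4. The fit without both dKO libraries kept 1 library for dKO males on day 10, replicate 1, which was assumed to vary like the other groups. Because both dKO libraries were among the lowest of day 10 for every member, leaving them out was bound to shrink a lower level in dKO. On day 20 the hindbrain list was at 30.0 to 48.9 CPM in all 12 libraries.

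**Figure D1:**
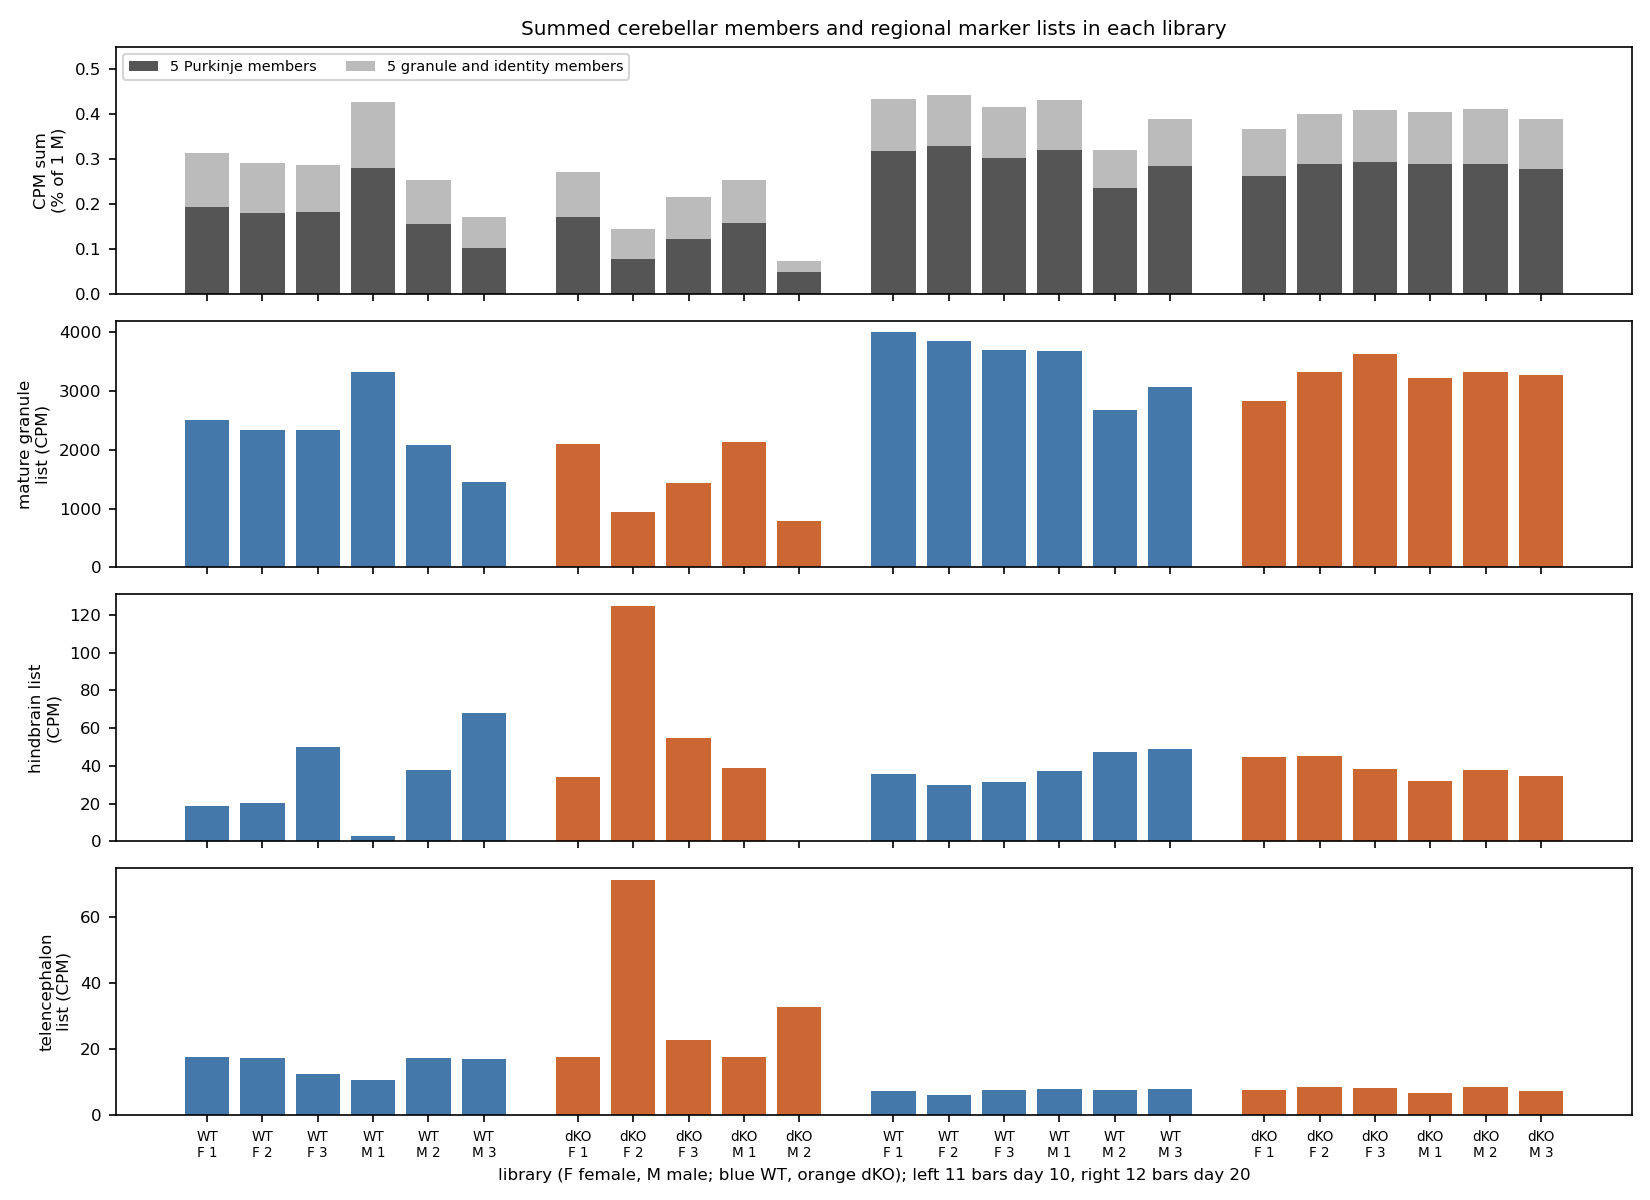
Summed levels in each library, from the top: the 10 members as a percent of 1 M (dark, Purkinje; light, granule and identity), then the mature granule, hindbrain and telencephalon lists in CPM, with 11 libraries of day 10 on the left and 12 of day 20 on the right. The members span 0.0729% to 0.427% on day 10 and 0.320% to 0.443% on day 20, and the hindbrain bar of dKO male replicate 2 (0.391 CPM) is too short to see.

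The members together made up 0.291% ± 0.0832 (SD, n = 6) of normalised counts in WT on day 10 and 0.191% ± 0.0823 (n = 5) in dKO. On day 20 the shares were 0.406% ± 0.0464 (n = 6) in WT and 0.397% ± 0.0167 (n = 6) in dKO. Day 10 values by library ran from 0.172% to 0.427% in WT and were 0.271%, 0.144%, 0.215%, 0.254% and 0.0729% in dKO, so the genotypes overlapped. The Purkinje members accounted for 0.182% ± 0.0579 of the WT total on day 10 and 0.299% ± 0.0347 on day 20, whereas the granule and identity members stayed at 0.108% ± 0.0256 and 0.107% ± 0.0123. Single genes weigh heavily in these sums. Mean Itpr1 in WT went from 1100 to 2019 CPM, within Purkinje sums of 1822 and 2986 CPM. In the level granule and identity sum, mean Cbln3 went from 149 to 355 CPM and mean Zic1 from 640.5 to 451 CPM. In bulk tissue a smaller number of cells of a type and less RNA per cell cannot be told apart, nor can a different cut of the tissue.

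The granule cell members Barhl1 and Cbln3 went in opposite directions with age in both genotypes. Barhl1, a homeobox factor of the Atoh1 lineage that is active in granule progenitors and migrating granule cells (chromosome 2, 28907679 to 28916668 on GRCm38, minus strand), was at 28.1 to 45.2 CPM in WT on day 10 (median 39.0) and at 5.66 to 7.85 CPM (median 7.06) on day 20. It fell by 2.51 ± 0.19 (SE) on the log2 scale in WT (edgeR adjusted p = 5.17e-09). In dKO it was at 38.0, 36.4, 56.4, 38.4 and 17.0 CPM on day 10 and at 7.38 to 11.5 CPM on day 20, and fell by 1.86 ± 0.19 (edgeR adjusted p = 1.83e-07). Day 20 lay below every day 10 library in both genotypes.

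Cbln3, a secreted cerebellin made by granule cells that assembles with Cbln1 (chromosome 14, 55878913 to 55884392, minus strand), was at 40.5 to 289 CPM in WT on day 10 (median 140) and 271 to 390 CPM (median 368) on day 20. The WT days overlapped only through WT male replicate 1 of day 10 (289 CPM) and WT male replicate 2 of day 20 (271 CPM). Cbln3 rose by 1.24 ± 0.46 in WT (edgeR adjusted p = 0.0354) and by 2.65 ± 0.54 in dKO (edgeR adjusted p = 0.000495). Its dKO values on day 10 were 106, 9.57, 35.6, 111 and 30.2 CPM, an 11.6-fold range, and on day 20 they lay between 358 and 431 CPM.

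Zic1, a zinc-finger factor kept on from progenitors to mature granule cells (chromosome 9, 91358058 to 91365810, minus strand), was lower on day 20 in WT without passing the test, at 477 to 785 CPM against 357 to 491 CPM (log2 change -0.51 ± 0.24, edgeR adjusted p = 0.0848). In dKO it was at 616, 498, 646, 587 and 132 CPM on day 10 and at 440 to 510 CPM on day 20 (0.07 ± 0.25, edgeR adjusted p = 0.828). That dKO value rests on male replicate 2: without both dKO libraries that stood apart it was -0.34. WT Zic1 was then at -0.53, close to its -0.51 with all 23 libraries, and no WT library had been left out. Cbln1, a secreted cerebellin that organises the synapses of parallel fibres on Purkinje cells (chromosome 8, 87468405 to 87472609, minus strand), was nearly level in WT at 106 to 286 CPM on day 10 and 164 to 240 CPM on day 20 (0.07 ± 0.26, edgeR adjusted p = 0.852). En2, a homeobox factor that patterns the midbrain and hindbrain (chromosome 5, 28165694 to 28172166, plus strand), was likewise nearly level in WT, at 34.9 to 78.5 and 44.2 to 62.0 CPM (-0.09 ± 0.22, edgeR adjusted p = 0.751).

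Because the summed level of the members differed between libraries, members were also set against each other within a library, on CPM per kilobase of exon. Cbln3 relative to Zic1 was 0.261 ± 0.123 (SD, n = 6) in WT on day 10 and 0.922 ± 0.0461 on day 20, and 0.156 ± 0.106 (n = 5) and 0.915 ± 0.0601 in dKO. Barhl1 relative to Zic1 went the other way, from 0.0907 ± 0.0200 to 0.0222 ± 0.00186 in WT and from 0.122 ± 0.0400 to 0.0290 ± 0.00436 in dKO. Neither ratio overlapped between days in either genotype. On day 10 the lowest ratio of Cbln3 to Zic1 was 0.0225 in dKO female replicate 2, followed by 0.0645 in dKO female replicate 3 and 0.0994 in WT male replicate 3.

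**Figure D2:**
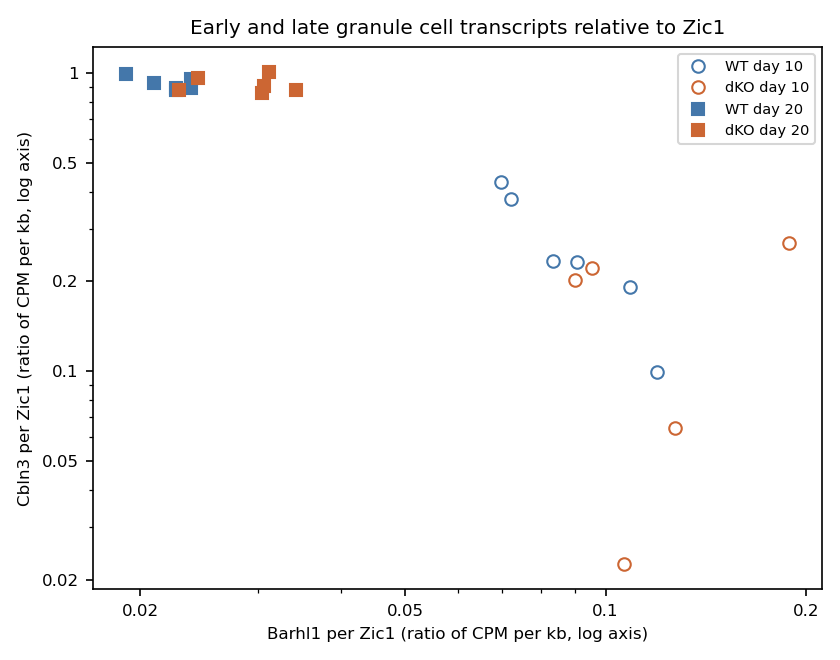
Each point is 1 library, placed by its ratio of Barhl1 to Zic1 (x) and of Cbln3 to Zic1 (y), both from CPM per kb on log axes; open circles are day 10, filled squares day 20, blue WT and orange dKO. All 12 day 20 libraries sit at the upper left, with Cbln3 per Zic1 of 0.857 to 1.01, while day 10 spreads from 0.0225 to 0.431.

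The other lists of granule genes moved with these members between the days. Of 12 genes of dividing granule progenitors, 8 fell and 2 rose in WT, by the edgeR test, where 24.9% of all genes fell and 25.5% rose, and Cdk1 (-4.25), Top2a (-4.90), Mki67 (-4.76) and Mycn (-2.76) had the smallest p-values, all of them cell-cycle or proliferation genes. Atoh1, named here because it defines these progenitors, was at 1.06 to 3.71 CPM in WT on day 10 and at 0 to 0.208 CPM on day 20. Of 10 immature granule genes 8 fell and 0 rose, led by Sema6a (-0.88), Dcx (-3.10), Nhlh1 (-5.76) and Insm1 (-4.29). Of 10 mature granule genes 6 rose and 0 fell, led by Calb2 (1.13), Kcnd2 (0.30), Etv1 (1.15) and Slc17a7, the vesicular glutamate transporter (0.92). In dKO the counts were 7 lower and 2 higher for the progenitor list, 7 lower for the immature list and 9 higher for the mature list, where 30.4% of all genes rose and 31.2% fell.

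Among the Purkinje members 2 of 5 rose with age in WT, Itpr1 and Ppp1r17. In WT, Itpr1, the IP3 receptor that releases calcium from the endoplasmic reticulum (chromosome 6, 108213096 to 108551109, plus strand), went from 605 to 1702 CPM (median 1086) on day 10 to 1630 to 2233 CPM (median 2078) on day 20. It rose by 0.87 ± 0.27 on the log2 scale (edgeR adjusted p = 0.0136), with 1 library of each day in the overlap. Ppp1r17, a phosphatase inhibitor also called G-substrate (chromosome 6, 56017497 to 56032689, plus strand), rose by 0.94 ± 0.36 in WT (edgeR adjusted p = 0.0370), from 9.38 to 40.1 CPM to 37.9 to 59.2 CPM. When the 23 libraries were left out 1 at a time, Ppp1r17 lost its WT call in 10 cases (edgeR adjusted p = 0.0539 to 0.0804) and Cbln3 in 9 (adjusted p = 0.0528 to 0.0811).

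Pcp2, a modulator of G-protein signalling that is nearly exclusive to Purkinje cells in the cerebellum (chromosome 8, 3623371 to 3625545, minus strand), did not pass the test in WT. Its WT values were 42.5 to 104 CPM (median 66.0) on day 10 and 60.8 to 91.9 CPM (median 85.0) on day 20, a log2 change of 0.23 ± 0.28 (edgeR adjusted p = 0.532). Calb1, the calcium buffer calbindin (chromosome 4, 15881264 to 15908064, plus strand), was at 170 to 419 and 264 to 383 CPM (0.25 ± 0.24, adjusted p = 0.414). Car8, an inactive carbonic anhydrase relative that binds Itpr1 (chromosome 4, 8143362 to 8239041, minus strand), was at 192 to 531 and 362 to 536 CPM (0.52 ± 0.25, adjusted p = 0.0955). Car8 passed when WT male replicate 1 of day 10 was left out (0.77, edgeR adjusted p = 0.0109). In all, 4 of 10 members were called between the days in WT, 3 higher and 1 lower, beside 50.4% of all genes (25.5% higher and 24.9% lower).

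In dKO, 8 of 10 members were called between the days, 7 higher and Barhl1 lower, beside 61.6% of all genes (30.4% higher and 31.2% lower). The Purkinje members were all among them: Pcp2 rose by 1.02 ± 0.32, Car8 by 1.03 ± 0.27, Ppp1r17 by 1.94 ± 0.41, Calb1 by 0.75 ± 0.26 and Itpr1 by 1.54 ± 0.30 (edgeR adjusted p = 0.000301 to 0.0208). Cbln1 rose by 0.74 ± 0.29 (edgeR adjusted p = 0.0360), and En2 did not pass (0.36 ± 0.24, adjusted p = 0.199). Days did not overlap in dKO for those 8 members, and the share of all genes without such overlap was not counted. Without both dKO libraries that stood apart, Pcp2 (0.51, edgeR adjusted p = 0.0654), Calb1 (0.33, 0.206) and Cbln1 (0.29, 0.298) lost their calls, and Car8 (0.63), Ppp1r17 (1.39), Itpr1 (1.10), Cbln3 (2.08) and Barhl1 (-2.16) remained called. With 1 library left out at a time, Cbln1 lost its dKO call in 7 cases (edgeR adjusted p = 0.0515 to 0.176) and Calb1 without dKO male replicate 2 of day 10 (0.44, adjusted p = 0.121). Leaving out dKO male replicate 1 of day 10 instead gave 0.79 for Zic1 and 0.80 for En2, with 1 library left for dKO males that day.

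**Figure D3:**
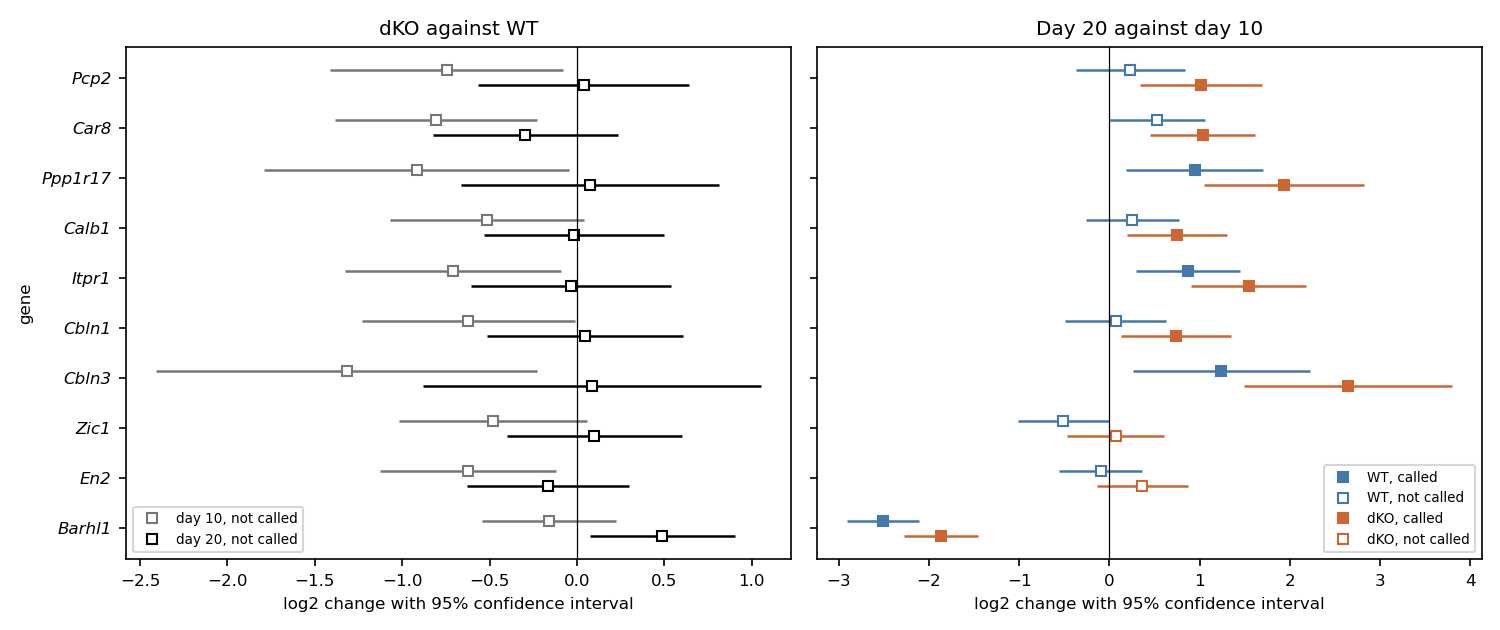
Log2 change of each member with its 95% confidence interval from edgeR: dKO against WT on day 10 (grey) and day 20 (black) on the left, day 20 against day 10 in WT (blue) and dKO (orange) on the right; filled squares passed an adjusted p of 0.05. On the left no square is filled, and on the right Barhl1 is the only member with a negative change in both genotypes that passed.

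Within the Purkinje members the balance also changed with age. Itpr1 relative to Pcp2, per kilobase, was 1.59 ± 0.117 (n = 6) in WT on day 10 and 2.49 ± 0.176 (n = 6) on day 20, with no overlap, while Calb1 relative to Pcp2 was 1.61 ± 0.105 and 1.62 ± 0.0814. The dKO ratios of Itpr1 to Pcp2 were 1.75 ± 0.309 (n = 5) and 2.37 ± 0.199 (n = 6). There dKO male replicate 2 of day 10 reached 2.27, inside the day 20 range of 2.14 to 2.63, and the other 4 day 10 libraries had 1.54 to 1.78. Of 19 further Purkinje genes, 9 rose and 4 fell in WT, beside 50.4% of all genes called, led by Aldoc (1.22), Plcb4 (0.61), the early Purkinje factor Lhx5 (-0.69) and Atp2a3 (1.44). In dKO 16 rose and 2 fell, beside 61.6% of all genes called. Without both libraries that stood apart 11 rose and 2 fell, beside 53.6% of all genes.

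Ranked by CPM per kilobase in WT on day 20, Car8 (127 ± 16.8) and Itpr1 (110 ± 12.2) were highest and did not differ beyond their SD. Zic1 (79.2 ± 8.89), Cbln3 (73.0 ± 8.68), Calb1 (71.7 ± 9.05) and Cbln1 (68.5 ± 9.12) followed, each within 1 SD of its neighbour in that order. Pcp2 (44.4 ± 6.23), Ppp1r17 (28.6 ± 4.11), En2 (15.5 ± 2.03) and Barhl1 (1.75 ± 0.244) were each lower by more than those SDs. The SDs are between libraries and ignore that all genes were measured in the same libraries. Within each WT library of day 20, Car8 was above Itpr1, and Zic1 was above Cbln3 (Cbln3 relative to Zic1 0.874 to 0.996). On day 10 the order began with Zic1 (113 ± 19.7) and Car8 (87.9 ± 28.9), Cbln3 (30.6 ± 17.3) stood below Pcp2 (37.4 ± 10.95), and Barhl1 (9.98 ± 1.61) was again last.

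No member differed between the genotypes on day 10 by the edgeR test, where 4.99% of all genes were called. All 10 log2 changes were negative, with a median of -0.67 beside 0.005 over all genes. At an unadjusted p under 0.05 there were 7 of the 10, beside 5294 of 21657 genes. DESeq2 called 2 of the 10 (Car8 and Cbln3) beside 2105 of 21657 genes. With limma-voom 0 of 10 were called beside 1489 genes, and 9 had an unadjusted p under 0.05 beside 5554 genes. The genotype ranges overlapped for each of the 10, and the share of all genes that overlapped was not counted.

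The Purkinje members on day 10 were lower by up to 0.92 on the log2 scale, with none passing. In dKO Pcp2 was at 65.3, 25.4, 45.3, 61.1 and 12.6 CPM, below the WT range of 42.5 to 104 CPM in 2 of 5 libraries (-0.75 ± 0.31, edgeR adjusted p = 0.157). Car8 was at 296, 143, 241, 244 and 88.3 CPM (-0.81 ± 0.27, edgeR adjusted p = 0.0871). Ppp1r17 had the widest spread of the Purkinje members at 25.5, 2.73, 9.65, 23.0 and 5.92 CPM (-0.92 ± 0.41, edgeR adjusted p = 0.182).

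Each of these genes was under the WT range in the same pair, female replicate 2 and male replicate 2. Calb1 was at 297, 150, 230, 279 and 87.7 CPM (-0.52 ± 0.26, edgeR adjusted p = 0.239). Itpr1 was at 1030, 452, 701, 959 and 287 CPM (-0.71 ± 0.29, edgeR adjusted p = 0.147). Both repeated that split, with 3 dKO libraries inside the WT range and 2 below it.

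Granule and identity members on day 10 ranged from -1.32 ± 0.51 for Cbln3 (edgeR adjusted p = 0.129) to -0.16 ± 0.18 for Barhl1 (edgeR adjusted p = 0.650). Cbln3 was below the WT range in 3 of 5 dKO libraries. Cbln1 was at 183, 95.7, 138, 188 and 48.2 CPM in dKO (-0.62 ± 0.29, edgeR adjusted p = 0.194). En2 was at 49.6, 23.5, 42.0, 53.4 and 20.1 CPM (-0.62 ± 0.24, edgeR adjusted p = 0.122). Zic1 was below the WT range in male replicate 2 alone (-0.48 ± 0.25, edgeR adjusted p = 0.260). Barhl1 in dKO reached both below (17.0 CPM, male replicate 2) and above (56.4 CPM, female replicate 3) the WT range of 28.1 to 45.2 CPM.

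The size of these day 10 differences depended on which libraries were kept. Without both dKO libraries that stood apart the 10 changes ran from -0.78 for Cbln3 to 0.12 for Barhl1, with a median of -0.26 (edgeR adjusted p = 0.645 to 0.907), and 11 genes in all were called. Without the pair of libraries under 5 CPM of hindbrain genes (dKO male replicate 2 and WT male replicate 1), also chosen after seeing the data, they ran from -0.49 for Cbln3 to 0.04 for Barhl1. Leaving out dKO male replicate 1 instead gave changes of -0.51 for Barhl1 to -1.94 for Cbln3. Each of these fits left 1 library for dKO males on day 10. It was replicate 1 where male replicate 2 was left out, and otherwise replicate 2, the lowest library. That library was assumed to vary like the other groups. By the edgeR test 2 members passed without dKO female replicate 1 (Ppp1r17 and Cbln3) and 2 without WT male replicate 3 (Car8 and En2). The counts over all genes in those fits are not given here. Across all fits with 1 library left out they ran from 15 to 4516 on day 10. The part of these regional markers in the day 10 differences was not tested.

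**Figure D4:**
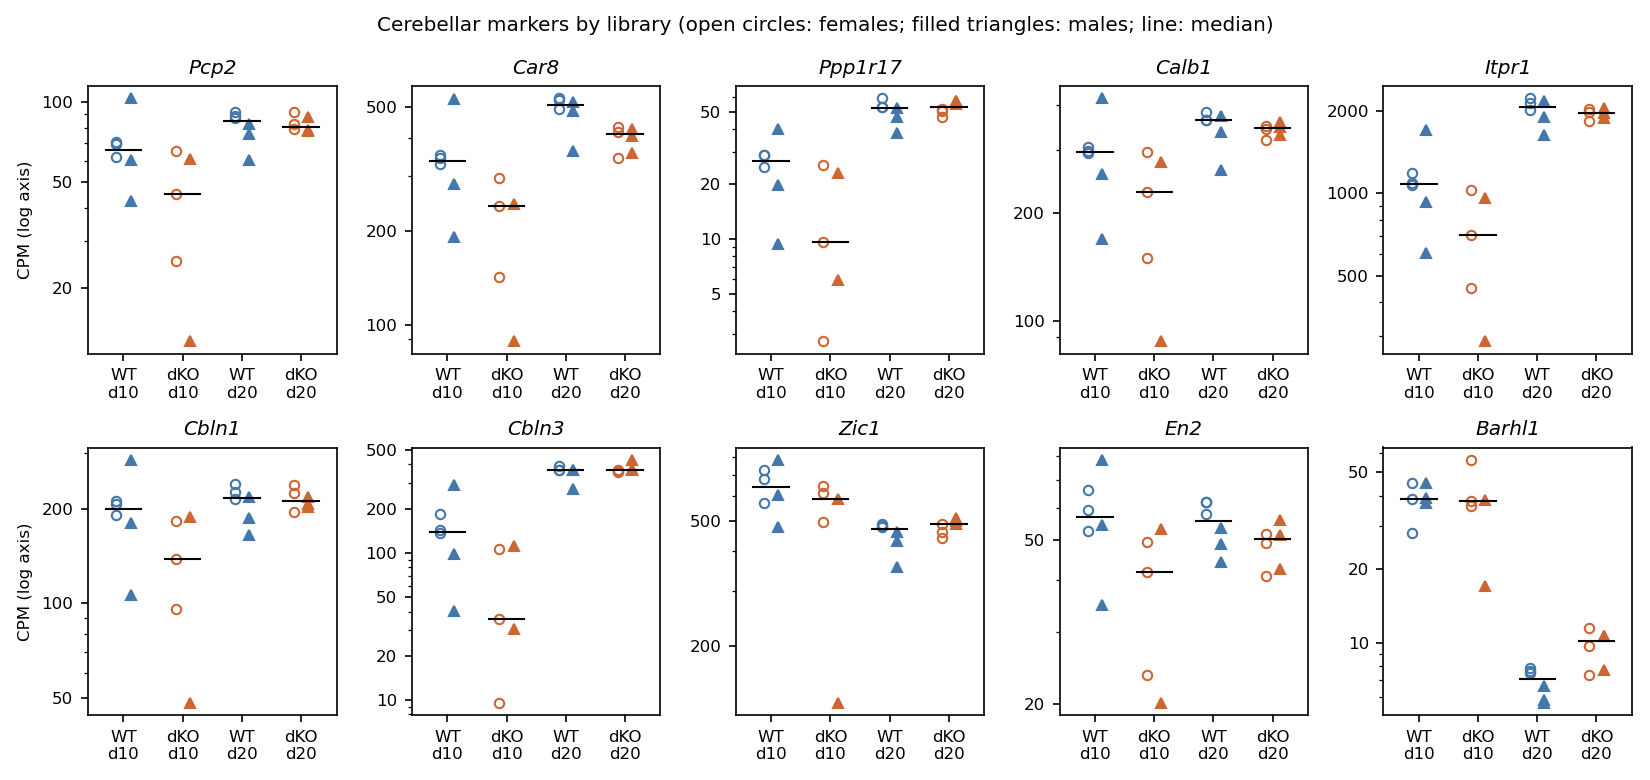
Level of each member in every library in CPM on log axes, by genotype and day (d10, d20); open circles are females, filled triangles males, and the line is the group median. On day 10 the lowest dKO points are female replicate 2 or male replicate 2 for every member, and on day 20 WT male replicate 2 is lowest for 7 of 10.

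The mature granule list shares no gene with the members but was read in the same libraries. It gave 10 of 10 negative changes on day 10 (median -0.83 beside 0.005 over all genes). By edgeR 0 were called, on a day when 4.99% of all genes were called. Grin2c (-1.13), Slc17a7 (-0.85), Grm4 (-0.81) and Etv1 (-0.81) had edgeR adjusted p-values of 0.0858 to 0.107. Its sum was 1457 to 3321 CPM in WT and 792 to 2126 CPM in dKO. Of the 12 progenitor genes none was called and 6 were positive. Among the 19 further Purkinje genes 18 were negative and 0 called, with Atp2a3 (-0.93), Gng13 (-1.12) and Inpp5a (-0.44) among those with the smallest p. Without both dKO libraries that stood apart the medians of these lists moved to -0.43, 0.21 and -0.20.

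On day 20 the members were close between genotypes. No member was called by edgeR beside 38% of all genes (18.8% higher and 19.2% lower), and the median change was 0.04. At an unadjusted p under 0.05 there was 1 of 10, beside 9936 of 21657 genes. DESeq2 called 1 (Barhl1) beside 8131 genes. With limma-voom 0 were called beside 8289 genes, and 0 had an unadjusted p under 0.05 beside 10017 genes. Pcp2 was at 60.8 to 91.9 CPM in WT and 78.2 to 91.8 CPM in dKO, a log2 change of 0.04 with a 95% confidence interval of -0.57 to 0.64. The intervals were similar in width for Ppp1r17 (-0.67 to 0.81), Calb1 (-0.53 to 0.50), Itpr1 (-0.61 to 0.54), Cbln1 (-0.52 to 0.61), Zic1 (-0.40 to 0.60) and En2 (-0.63 to 0.30), and wider for Cbln3 (-0.88 to 1.05). That width comes from a spread estimated over both days.

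Barhl1 and Car8 came nearest to a difference on day 20. Barhl1 was at 5.66 to 7.85 CPM in WT and 7.38 to 11.5 CPM in dKO, where 4 of 6 libraries lay above every WT library, and its change was 0.49 ± 0.20 (edgeR adjusted p = 0.0600). Car8 was at 362 to 536 CPM in WT and 344 to 433 CPM in dKO (-0.30 ± 0.25, edgeR adjusted p = 0.389), and WT male replicate 2 (362 CPM) was lowest in WT, where the other 5 libraries lay between 488 and 536 CPM. When the fit held only the day 20 libraries, both passed: Barhl1 at 0.49 (edgeR adjusted p = 0.000594) and Car8 at -0.29 (edgeR adjusted p = 0.0212), beside 47.5% of all genes. Without both dKO day 10 libraries that stood apart Barhl1 stayed at 0.49, and that fit kept the same day 20 libraries.

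The paralog Barhl2 was called higher in dKO on day 20, where Barhl1 was at 0.49 (edgeR adjusted p = 0.0600). These genes were not tested against each other. Barhl2 was at 9.99 to 17.7 CPM in WT and 18.0 to 26.8 CPM in dKO and was called at 0.66 ± 0.21 (edgeR adjusted p = 0.0198), the only one of 6 Zic, En and Barhl paralogs called. Of 12 progenitor genes 4 were lower and 2 higher in dKO on day 20, beside 38% of all genes called (18.8% higher and 19.2% lower), led by the cyclin Ccnd1 (-0.92), the hedgehog inhibitor Hhip (-1.02), Mki67 (-2.67) and Gli2 (0.70). Mki67, a marker of dividing cells of any type, was at 2.63 to 8.82 CPM in WT and 0.527 to 1.16 CPM in dKO. Of the 19 further Purkinje genes 2 were called, a share below that 38%, Lhx1 (0.45 ± 0.13, edgeR adjusted p = 0.00986) and Dner (0.14 ± 0.05, edgeR adjusted p = 0.0387).

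A granule maturation index, the mean log2 CPM of the mature genes minus that of the progenitor genes, was 2.43 ± 0.60 (n = 6) in WT and 1.55 ± 0.98 (n = 5) in dKO on day 10. The dKO values were 2.22, 0.12, 0.91, 2.33 and 2.16, with the low end in female replicates 2 and 3. On day 20 the index was 5.05 to 5.64 in WT and 5.79 to 6.11 in dKO, without overlap. The median change in dKO that day was -0.63 for the progenitor list, which the index subtracts, and -0.13 for the mature list. The higher dKO index therefore does not show a higher level of mature granule transcripts. Of the mature genes 8 of 10 had a negative change on day 20 and 1 was called, Kcnd2 (-0.15 ± 0.05, edgeR adjusted p = 0.0276).

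Whether the genotype difference itself changed between the days was tested directly. All 10 members had a positive value (0.46 for En2 to 1.40 ± 0.68 for Cbln3), and 0 were called by edgeR beside 28.3% of all genes. At an unadjusted p under 0.05 there was 1 member, beside 8512 of 21657 genes. DESeq2 called 1 (Barhl1) beside 6213 genes. With limma-voom 0 were called beside 6187 genes, and 5 had an unadjusted p under 0.05 beside 8666 genes. The lowest edgeR adjusted p was 0.0811, for Barhl1 (0.65 ± 0.27). Without both dKO libraries that stood apart the median fell from 0.66 to 0.25. Leaving out dKO male replicate 1 of day 10 gave 0.89 for En2 to 2.02 for Cbln3, with 1 library left for dKO males that day. Leaving out dKO female replicate 1 of day 10 brought Ppp1r17 and Cbln3 past the threshold. Across all fits with 1 library left out, 4884 to 7327 genes were called.

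Females and males were also compared. On day 10 no member was called in females (9 of 10 negative, 0.319% of all genes called) or in males (10 of 10 negative, 0.0139%). By edgeR 1 member in each had an unadjusted p under 0.05, beside 3864 genes in females and 3978 in males, of 21657. DESeq2 and limma-voom called 0 members in either sex on day 10. On day 20 no member was called in females (10.4% of all genes called, 0 unadjusted) or in males (34.6%, 1 unadjusted). Over all genes, 5408 in females and 9363 in males had an unadjusted p under 0.05 that day. In the fit of all 8 groups the genotype difference did not pass a test of a sex difference for any member on either day, where 0% of all genes were called. At an unadjusted p under 0.05 there was 1 member on day 10, beside 2482 genes, and 0 on day 20, beside 3220 genes. On day 20 all 10 male-minus-female values were positive, from 0.17 to 0.46. When edgeR held only the day 20 groups, 2 members were called for that sex difference, beside 1182 of 20369 genes. With only the groups of 1 sex on day 20, 2 members were lower in dKO in females, beside 4003 of 19432 genes called. In males 3 were higher in dKO, beside 8657 of 19516. DESeq2 called 1 member in males on day 20, 0 in females, and 0 for either sex difference, and limma-voom called 0 in each.

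The spread between replicate libraries was itself large for the members on day 10 and ordinary on day 20. The pooled SD of log2 CPM within sex, genotype and day had a median over the members of 0.66 on day 10 and 0.14 on day 20, beside 0.17 and 0.12 over the 16985 genes averaging 1 CPM or more. Cbln3 (1.30) and Ppp1r17 (1.15) had the widest spread on day 10 and Barhl1 (0.42) the narrowest. For Cbln3, 99.8% of genes had a smaller SD on day 10 and 59.0% on day 20.

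Across the 23 libraries log2 CPM of Pcp2 followed Calb1 (r = 0.982), Cbln1 (0.977) and Car8 (0.954) and ran weakly against Barhl1 (-0.367), while Cbln3 followed Ppp1r17 (0.992) and Itpr1 (0.947) and had an r of 0.160 with Zic1. Among 16975 other genes the nearest to Pcp2 were Arhgef33 (0.990), Fat2 (0.985), Dusp5 (0.974), Cnpy1 (0.970) and Pkib (0.970). The nearest to Cbln3 were Pvalb (0.997), Sycp1 (0.987), Rgs8 (0.986), Slc22a4 (0.985) and Kcng4 (0.982). Pvalb rose in WT from 90.6 ± 39.3 to 178 ± 14.8 CPM (SD, n = 6 each). These correlations describe libraries that share age groups and tissue makeup and carry no test.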

How the data were processed

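Libraries were made with a stranded mRNA kit, per the labels, and the deposited values are whole-number read counts per gene in a column each for unstranded, forward and reverse counting. STAR 2.5.2b, HTSeq and GRCm38.p5 are named per the submitters' processing notes; which of them counted, and the annotation, could not be read from those notes or the labels. The reverse-strand counts were used (the forward column held 5.22% to 7.46% as many) and 4 entries that name no gene were left out. Identifiers were matched to GENCODE M21 (50462 matched, 224 not). Libraries under 1 M gene counts were left out, which removed 1 of 24.

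The remaining 23 libraries were fitted together with edgeR 4.0.16 in R 4.3.3: filterByExpr by group, TMM scaling, a mean for each of 8 groups of genotype, sex and day, and the robust quasi-likelihood test, two-sided, with Benjamini-Hochberg adjustment over 21657 genes and a threshold of 0.05. Log2 CPM used a prior count of 2, and levels of different genes were compared per kilobase of exon. DESeq2 1.42.0, limma-voom (limma 3.58.1), other filters and scalings, the unstranded column and leaving out libraries were alternatives. The procedure was tested on simulated data. The 10 members and the other gene lists were chosen with earlier results of these data known. Named from each other list were up to 4 genes with the smallest p, and every called gene where 4 or fewer were called; the nearest genes were the 5 with the highest Pearson r with Pcp2 and with Cbln3. Some genes that this rule would name are not reported here.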

Additional observations from a re-analysis of the deposited data

Results flagged for a closer look

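Of 40 groups of one member, genotype and day, 4 held a library whose gap to its nearest neighbour exceeded Dixon's 95% critical value, where chance gives about 1 in 20 groups, or 2.0. WT male replicate 2 of day 20 was low for Car8, at 362.1 CPM against 487.7 to 535.8 in the other 5 libraries, and for Cbln3, at 270.9 CPM against 365.7 to 390.1. For Cbln3, dKO male replicate 2 of day 20 was high, at 431.3 CPM against 357.5 to 373.3. For Zic1, dKO male replicate 2 of day 10 was low, at 131.6 CPM against 497.9 to 646.3.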

How the results depend on the processing

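No paired analysis was possible because the labels give no replicate numbers that link libraries across groups. Without a filter on low counts, 308 genes were called on day 10 in females, 162 in males, 2 and 177 for the sex differences of day 10 and day 20, and 2 members between the days in WT. Keeping genes averaging 1 CPM or more gave 1 member on day 20. The unstranded column gave 32 genes on day 10 in females, a member share of 0.375% and a maturation index of 5.72 in dKO on day 20; unscaled CPM gave a share of 0.379%. DESeq2 called 2 members and 2105 genes on day 10, 1 member on day 20 and 1 in day 20 males, 1 for genotype by day, and 789, 572 and 347 genes for day 10 females, day 10 males and the day 20 sex difference. Without both dKO libraries that stood apart, day 10 had 11 genes (14 in females), day 20 1 member (1 in males) and the day 20 sex difference 127 genes. Without both libraries under 5 CPM of hindbrain genes, these were 11 (1508 in females), 1 (1 in males) and 331, and 7 members were called between the days in WT. Fits of the compared groups alone gave 6 genes on day 10, 10 in females and 0 in males; 2 members on day 20, 2 in females (4003 genes) and 3 in males; 2 members and 1182 genes for the day 20 sex difference; and 5 members between the days in dKO.

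Leaving out 1 library at a time gave 0 to 10 members and 15 to 4516 genes on day 10, 0 to 1 and 3 to 1277 in females, and 0 to 8 and 2 to 4350 in males. Day 20 gave 0 to 1 members and 7169 to 8910 genes, 0 and 1008 to 2700 in females, and 0 to 1 and 5541 to 8196 in males. Genotype by day gave 0 to 10 members and 4884 to 7327 genes, and the sex differences 0 to 2 and 0 to 1997 on day 10 and 0 and 0 to 150 on day 20. Between the days, WT gave 2 to 5 members and 9965 to 11380 genes and dKO 6 to 10 and 12450 to 13420. The member share ranged over 0.2626% to 0.3135% and 0.1708% to 0.2201% on day 10 (WT, dKO) and 0.3995% to 0.4243% and 0.3953% to 0.4041% on day 20. The maturation index ranged over 2.27 to 2.60 and 1.35 to 1.91, and 5.34 to 5.46 and 5.92 to 5.98.

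Of 330 alternatives for the 10 members in each comparison, 311 left direction and call alone on day 10, 313 on day 20, 314 for genotype by day, 296 between the days in WT and 308 in dKO. Signs turned for Barhl1 on day 10 (range -0.51 without dKO male replicate 1 to 0.063 without dKO male replicate 2; 0.12 without both that stood apart, 0.035 without both low in hindbrain genes) and for Zic1 between the days in dKO (-0.29 to 0.79 without the same male replicates 2 and 1, -0.34 and -0.29 without the same pairs). They also turned on day 20 with 1 library left out, and the lowest and highest values came without WT male replicate 2 and without WT male replicate 1: -0.083 to 0.039 for Calb1, -0.087 to 0.018 for Itpr1, -0.019 to 0.087 for Pcp2 and -0.00062 to 0.10 for Cbln1. Between the days, En2 in WT ranged from -0.21 to 0.072 and Cbln1 in WT from -0.071 to 0.28 without WT male replicate 3 or 1 of day 10, En2 in WT became 0.052 without both low in hindbrain genes, and En2 in dKO -0.030 without both that stood apart. Car8 for genotype by day became -0.0037 without both low in hindbrain genes. The cause was not tested. Each member lay above the level of 1 count in the libraries used, with the fewest counts (32) for Ppp1r17 in dKO female replicate 2 of day 10. How far depth, or the number and spread of day 10 libraries, limits these values was not tested.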

Other observations

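Partners of the cerebellins and genes of the IP3 pathway, in which Itpr1 acts, were not described above. Of 9 cerebellin partners and relatives, 3 were higher in dKO on day 10 by edgeR and 0 lower, beside 4.99% of all genes called that day: Grid1 (0.32, adjusted p = 0.0302), Cbln4 (0.71, 0.0432) and Cbln2 (0.72, 0.0462). None was called without both dKO libraries that stood apart (0.15, 0.38 and 0.35). On day 20, when 38% of all genes were called (18.8% higher and 19.2% lower), 2 of the 9 were higher, Adgrb3 (0.18, edgeR adjusted p = 0.00507) and Nrxn2 (0.23, 0.0152), and 1 was lower. Of 14 IP3 pathway genes, 1 was called on day 10, Itpr3, which was lower in dKO (-0.43, edgeR adjusted p = 0.0395). Without both libraries that stood apart Itpr3 was at -0.29 (edgeR adjusted p = 0.551). With all 23 libraries, 12 of the 14 had a negative change, and 9 had an unadjusted p under 0.05, beside 5294 of 21657 genes. On day 20 the same list had 4 higher and 2 lower, a share near the 38% of all genes called, with Stim1, the sensor of calcium in the endoplasmic reticulum (0.44, edgeR adjusted p = 4.76e-06), the calcium channel subunit Orai2 (0.34, 0.000119), the calcium pump Atp2a2 (-0.23, 0.000796) and the G-protein subunit Gna11 (0.13, 0.0236) first by p.

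Of 10 markers of other cerebellar neurons 2 were called on day 20, and of 5 Bergmann glia markers 2, beside 38% of all genes. Eomes, a factor of unipolar brush cells, was lower in dKO on day 20 (-1.39 ± 0.28, edgeR adjusted p = 0.00103), as was Grm2 (-0.28 ± 0.10, adjusted p = 0.0317). Of the Bergmann glia markers, Ednrb was lower (-0.51 ± 0.06, edgeR adjusted p = 8.58e-07) and Timp4 higher (0.30 ± 0.09, adjusted p = 0.0135). On day 10, where 4.99% of all genes were called, 1 of the 10 neuron markers was called, Sorcs3, higher in dKO (0.36 ± 0.10, edgeR adjusted p = 0.0397). Without both libraries that stood apart Sorcs3 was at 0.12 (edgeR adjusted p = 0.675). None of the 5 Bergmann glia markers was called on day 10. Of these, 2 had an unadjusted p under 0.05, beside 5294 of 21657 genes.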
